A study of Homo sapiens with 18 samples.

Results

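The genes described here are 46 that encode factors of ribosome assembly and proteins of the nucleolus. These genes were chosen by name from a listed set, with earlier results of these data known. All were found by gene symbol among the 58037 gene IDs of a table of raw RNA sequencing counts. They were sorted by the textbook role of the protein into 5 groups. These are 5 core or accessory proteins of the small nucleolar ribonucleoprotein particles (FBL, NOP56, NOP58, GAR1, NOLC1), 13 factors of the early small subunit processome (UTP4, UTP15, HEATR1, WDR43, TBL3, PWP2, RRP9, IMP4, UTP20, BMS1, RCL1, NOC4L, DDX10), 5 late small subunit factors (BYSL, TSR1, LTV1, NOB1, RRP12), 19 large subunit factors (NOP2, NOP16, PES1, WDR12, PPAN, MRTO4, GNL3, NIP7, EBNA1BP2, RRS1, RRP1B, WDR74, NVL, URB2, NOC3L, NLE1, DDX18, GRWD1, PA2G4) and 4 multifunctional nucleolar proteins (NCL, NPM1, DDX21, LYAR). All 46 passed the filter on low counts in each fit. The smallest count of a member in any library was 18, for PWP2.

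Ribosomes are made in the nucleolus, where RNA polymerase I transcribes a long precursor RNA that is methylated and pseudouridylated by small nucleolar ribonucleoproteins, cut, folded and bound by ribosomal proteins. Assembly factors join and leave in a set order: the processome forms on the nascent precursor and yields the small subunit, while a separate line of factors matures the large subunit before both are exported to the cytoplasm. Genes of this pathway are classical targets of the transcription factor MYC, which binds the E-box sequence together with MAX, and proliferating cells keep them at high levels.

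The cells were 3 lines derived from acute myeloid leukemia. MOLM13 and MV4-11 carry a rearranged MLL1 (KMT2A) gene, and OCI-AML3 carries a mutant NPM1 gene that the counts do not separate from the normal allele. SNDX-50469, called VTP50469 in the labels, is a small molecule that blocks the binding of Menin to MLL1, and OTX015 is an inhibitor of the BET bromodomain proteins. Each culture was kept for 16 h: MOLM13 without drug, with 500 nM SNDX-50469, with 500 nM OTX015 or with 500 nM of each (2 libraries per group), MV4-11 without drug or with 1000 nM SNDX-50469 (2 libraries per group) and OCI-AML3 without drug or with 500 nM SNDX-50469 (3 libraries per group). OTX015 was given in MOLM13 only, and the dose in MV4-11 differs from that in the other lines. Each group is 1 cell line at 1 time, and the labels do not say which libraries came from separate cultures (the study describes those of MOLM13 and OCI-AML3 as biologic replicates), so the p-values measure the spread between these libraries, which may in part be technical.

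The 18 libraries held 19320216 to 59711884 counts, and the members together took 0.497% to 1.07% of a library. The fitted variation of a gene between replicates (square root of the common dispersion) was 3.06% for MOLM13, 3.15% for OCI-AML3 and 13.2% for MV4-11. Replicate 1 of untreated MV4-11 stood apart, with 10.3% of its counts in mitochondrial genes against 5.60% to 6.68% in the other MV4-11 libraries. The myeloid genes SPI1, CD33, CEBPA and CSF3R were present in all 3 lines, while HBB, KRT19 and COL3A1 were at 0 counts in every library, which allows up to 0.0502 to 0.155 CPM, 3 counts per library. Log2 changes within a line used TMM factors from the libraries of that line alone. Levels are given as CPM, the count scaled to a fixed library size after TMM scaling of all 18 libraries, so their ratios can differ a little from these log2 changes. They are shares of a library, with 0 entries for external spike-in RNA, so less RNA per cell for the whole transcriptome is not seen in them, and in bulk RNA fewer cells that express a gene cannot be told apart from less RNA per cell.

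The stretches around the gene starts are shown because the E-box is the site through which MYC is known to act on this pathway. RefSeq promoter windows of GRCh38.p14, from 250 bases before to 50 bases after a start site, were given for 39 members in 48 windows. The letters CACGTG, which read the same on both strands, were in a window of 20 of the 39 members (51.3%), against 8.78% of 27305 genes with a window and 12.9% of the 10141 of these that were tested in MOLM13. Of the 22 matches, 7 lay before the start of their window and 15 in the first 50 bases after it. The ETS motif CCGGAAGT was found, on either strand, for 10 of 39 members (25.6%) against 4.95% of all genes and 10.2% of those tested. The YY1 motif AAGATGGC was found for 4 (10.3%) against 3.52% and 6.68%. No matches of different motifs overlapped in the members' windows. For 9 members of the 5 roles, 30 bases that hold the E-box, in capitals, read as follows in the direction of the gene.
FBL: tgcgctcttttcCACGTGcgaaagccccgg
RRP9: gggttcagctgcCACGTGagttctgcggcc
UTP20: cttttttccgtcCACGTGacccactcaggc
BYSL: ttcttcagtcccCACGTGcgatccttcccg
NOP2: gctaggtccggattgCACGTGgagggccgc
PES1: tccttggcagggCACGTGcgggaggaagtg
MRTO4: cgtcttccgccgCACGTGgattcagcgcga
DDX21: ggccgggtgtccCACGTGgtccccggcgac
LYAR: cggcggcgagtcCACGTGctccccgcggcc

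These stretches lie at chr19:39846356-39846385 (- strand) for FBL, chr3:51941892-51941921 (- strand) for RRP9, chr12:101280083-101280112 (+ strand) for UTP20, chr6:41921515-41921544 (+ strand) for BYSL, chr12:6568242-6568271 (- strand) for NOP2, chr22:30591880-30591909 (- strand) for PES1, chr1:19251807-19251836 (+ strand) for MRTO4, chr10:68956604-68956633 (+ strand) for DDX21 and chr4:4290068-4290097 (- strand) for LYAR. Counted from the start in its window, the first base of the E-box was 5 bases before that of RRP9 and 10 before that of UTP20, and it was base 7 after that of FBL. For DDX21 and LYAR, each with 2 windows, it was 31 and 64 bases before the downstream start, which lies inside the RefSeq gene. The starts in the windows of BYSL and PES1 also lie inside the gene's span. The members with the largest and the smallest fall under the combined treatment, NOP16 and BMS1, both hold no E-box in their window, and their 150 bases before the start are shown for contrast. They lie at chr5:176388599-176388748 (- strand) for NOP16 and chr10:42782645-42782794 (+ strand) for BMS1.
NOP16: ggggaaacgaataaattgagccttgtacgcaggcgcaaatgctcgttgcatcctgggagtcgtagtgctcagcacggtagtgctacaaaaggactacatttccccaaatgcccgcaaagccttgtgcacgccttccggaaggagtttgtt
BMS1: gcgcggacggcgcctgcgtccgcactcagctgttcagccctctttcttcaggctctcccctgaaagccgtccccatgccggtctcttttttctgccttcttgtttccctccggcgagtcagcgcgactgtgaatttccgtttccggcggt

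In untreated MOLM13 the members differed widely in level per length. FBL, the methyltransferase of the box C/D particles, and NCL (nucleolin) led with means of 261 and 259.7 CPM per kilobase of exon, an order that turned between the 2 libraries. NPM1 (nucleophosmin, a chaperone of pre-ribosomes) came next with 208. The lowest were PPAN with 4.92, DDX10 with 4.39 and PWP2 with 1.76 CPM per kilobase. Exon lengths are from GENCODE v44 and join the exons of all annotated transcripts of a gene. They can therefore exceed the transcript present in the cells. The lengths were 2138 bases for FBL, 8919 for NCL, 8311 for NPM1 and 18059 for DDX10, so the order rests in part on them. By CPM alone, NCL (2316) and NPM1 (1730) lay above NOP56 (596) and FBL (557) in untreated MOLM13. Counts of PWP2 may be split with a near copy, as given at the end.

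The comparison in MOLM13 asks what each agent, and both together, did to the pathway. A gene was called when its adjusted p (edgeR's quasi-likelihood test, Benjamini-Hochberg over all genes tested) was under 0.05 and its log2 change at least 0.32 in size, the fold limit that the study used. With both agents, 44 of the 46 members fell and 0 rose, with a median log2 fold change of -1.20, where 30.9% of 14360 tested genes were called lower and 31.2% higher and the median of all genes was 0.02. With SNDX-50469 alone 5 members fell and 0 rose (5.24% of all genes lower, 8.06% higher), and with OTX015 alone 21 fell and 1 rose (24.7% lower, 23.5% higher). The medians were -0.16 and -0.30. The summed level of the members was 11619 and 11609 CPM in the untreated libraries, 10401 and 10329.7 with SNDX-50469, 9210.1 and 8857 with OTX015 and 5088 and 5222 with both. No treated library overlapped the untreated ones in this sum, and the libraries with both agents were the lowest. Such gaps are common with 2 libraries a group. With both agents 42.7% of all tested genes were wholly lower, every library below every untreated one, and 43.5% wholly higher. The shares were 36.4% and 29.7% with SNDX-50469 and 42.1% and 38.2% with OTX015. Of the members, 46, 39 and 42 were wholly lower and 0, 2 and 3 wholly higher in these 3 comparisons. The mitochondrial share of the counts moved with the treatments too, at 4.36% and 4.83% untreated, 4.98% and 5.50% with SNDX-50469, 5.60% and 5.56% with OTX015 and 5.74% and 6.01% with both, and its part in these results was not tested.

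**Figure D1:**
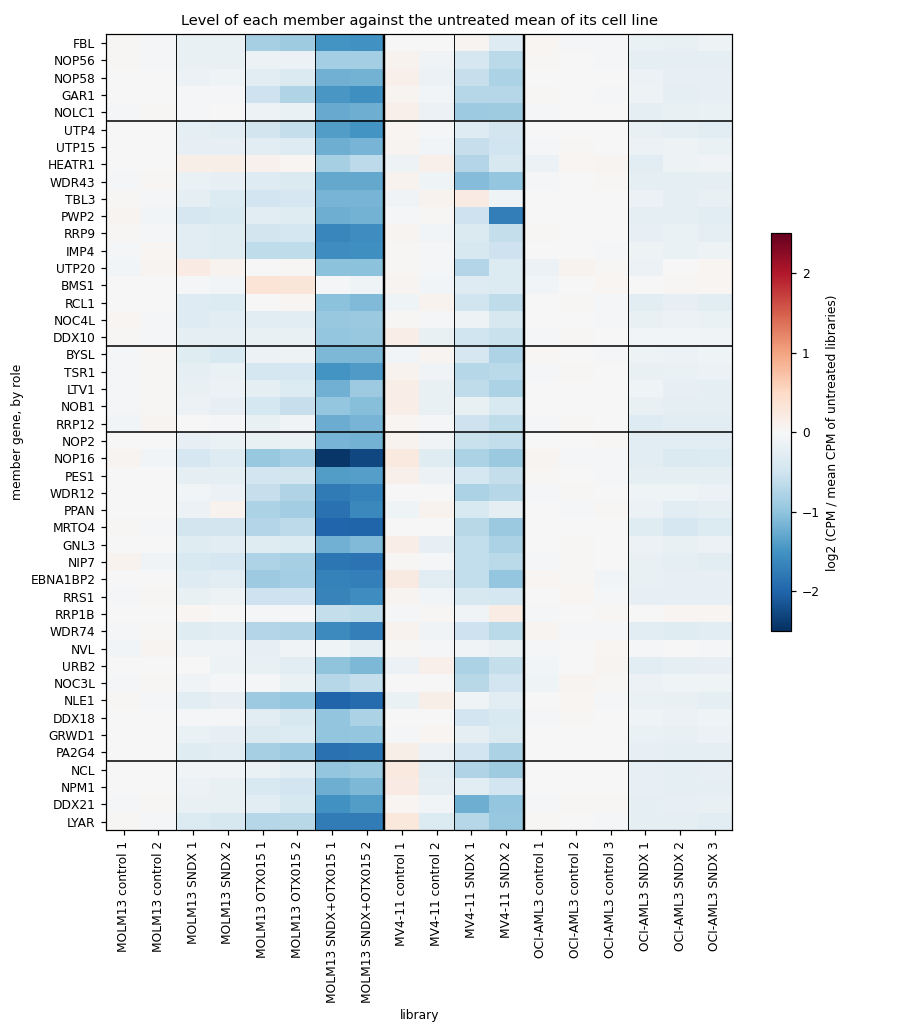
Level of each of the 46 members (rows, grouped by role between horizontal lines) in each of the 18 libraries (columns), as log2 of its CPM over the mean CPM of the untreated libraries of the same cell line. In the MOLM13 libraries with both agents the members' median lay at -1.22 and -1.18, while NVL and BMS1 stayed near 0.

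The large subunit factors had the lowest median of the roles under the combination, -1.61, and 18 of 19 fell. NOP16, a nucleolar protein of early 60S particles, measured 92.3 and 84.8 CPM in the untreated libraries, 65.9 and 71.0 with SNDX-50469, 45.9 and 48.9 with OTX015 and 16.4 and 18.2 with both agents. All treated libraries were below the untreated ones, the combination lowest, and its fall with both was 5.09-fold (log2 -2.35 ± 0.07, adjusted p = 1.23e-38), the largest of any member. PA2G4, a growth-regulated protein that binds 60S particles, measured 454 and 443 CPM in the untreated libraries, 363 and 373 with SNDX-50469, 252 and 239 with OTX015 and 123 and 126 with both agents. Its level with both agents was 27.9% of the untreated one (log2 -1.84 ± 0.04). Next to NOP16, the largest falls of any member were those of MRTO4, which holds the place of the stalk protein on the 60S particle, and NLE1, another 60S assembly factor, with log2 changes of -1.99 ± 0.05 and -1.96 ± 0.06, which do not differ beyond their errors. RRS1 (-1.61 ± 0.05), NIP7 (-1.82 ± 0.06), WDR12 (-1.73 ± 0.06), PPAN (-1.72 ± 0.14), EBNA1BP2 (-1.70 ± 0.05) and WDR74 (-1.65 ± 0.07) also fell by more than 1.5 on this scale. WDR12 and its partner PES1 (-1.38 ± 0.04) belong to the PeBoW complex of 60S maturation. The smallest called falls of the role were those of NOC3L (-0.66 ± 0.06) and RRP1B (-0.61 ± 0.04). NVL, an ATPase of 60S assembly, was at -0.17 ± 0.07 (adjusted p = 0.0199) and did not reach the fold limit.

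All 5 snoRNP proteins fell with both agents (median -1.24). FBL measured 572 and 543 CPM in the untreated libraries, 487 and 490.2 with SNDX-50469, 312 and 299.9 with OTX015 and 199 and 194 with both agents. The groups did not overlap, and the level with both agents was 35.4% of the untreated one. NOP56, a scaffold protein of the same particle, measured 604 and 587 CPM in the untreated libraries, 521 and 524 with SNDX-50469, 538 and 537 with OTX015 and 332 and 329 with both agents. It fell by 1.80-fold with both agents (log2 -0.85 ± 0.04, adjusted p = 1.17e-29), while with either agent alone its change was under the fold limit (-0.16 ± 0.04 and -0.12 ± 0.04). The paralogous scaffold NOP58 was at -1.19 ± 0.05, GAR1 of the pseudouridylation particles at -1.49 ± 0.09 and the snoRNP chaperone NOLC1 at -1.24 ± 0.04.

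Of the 13 early small subunit factors, 12 fell (median -1.16). RRP9, the protein of the U3 particle, measured 108 and 104 CPM in the untreated libraries, 87.7 and 86.3 with SNDX-50469, 77.0 and 77.7 with OTX015 and 34.1 and 36.3 with both agents. It was lower in every treated library and lowest with both agents, a 3.00-fold fall (log2 -1.59 ± 0.06, adjusted p = 1.84e-34). BMS1, a GTPase of the processome, measured 145 and 145 CPM in the untreated libraries, 139 and 139 with SNDX-50469, 184 and 178 with OTX015 and 141 and 135 with both agents. It rose with OTX015 (0.35 ± 0.04, adjusted p = 2.23e-10), the one member to do so, and with both agents it was at -0.06 ± 0.05 (adjusted p = 0.192), not called. The processome scaffolds UTP20 (-1.03 ± 0.06) and HEATR1 (-0.73 ± 0.05) fell with both agents. Under single agents HEATR1 measured 0.17 ± 0.05 and 0.12 ± 0.05, and UTP20 measured 0.17 ± 0.05 and 0.04 ± 0.06, none of them called. The other members of the role fell between -0.94 (NOC4L) and -1.53 (IMP4, a U3 protein).

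All 5 late small subunit factors fell (median -1.12). TSR1, a GTPase-like factor that keeps 40S precursors from starting translation, measured 162 and 167 CPM in the untreated libraries, 141 and 147 with SNDX-50469, 121 and 123 with OTX015 and 58.4 and 61.5 with both agents. Its level with both agents was 36.6% of the untreated one (log2 -1.45 ± 0.05). RRP12 was at -1.20 ± 0.05, BYSL at -1.12 ± 0.05, LTV1 at -1.04 ± 0.08 and NOB1, the nuclease that makes the final cut of 18S rRNA, at -1.02 ± 0.06.

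The 4 multifunctional proteins fell as well (median -1.31). NCL measured 2305 and 2328 CPM in the untreated libraries, 2179 and 2173 with SNDX-50469, 2068 and 1914 with OTX015 and 1177 and 1214 with both agents. Its groups did not overlap, yet with SNDX-50469 alone the change was -0.06 ± 0.04 (adjusted p = 0.165), against -0.95 ± 0.04 with both agents. NPM1 measured 1750.2 and 1711 CPM in the untreated libraries, 1567 and 1516 with SNDX-50469, 1324 and 1234 with OTX015 and 747 and 793 with both agents. It fell with OTX015 (-0.40 ± 0.04) and with both (-1.16 ± 0.04, adjusted p = 3.59e-37). LYAR, a nucleolar factor of growing cells, measured 119 and 114 CPM in the untreated libraries, 92.0 and 88.0 with SNDX-50469, 71.5 and 71.7 with OTX015 and 34.5 and 34.5 with both agents. It fell under each of the 3 treatments, to 29.7% of the untreated level with both. DDX21, a nucleolar RNA helicase, was at -1.46 ± 0.04 with both agents.

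**Figure D2:**
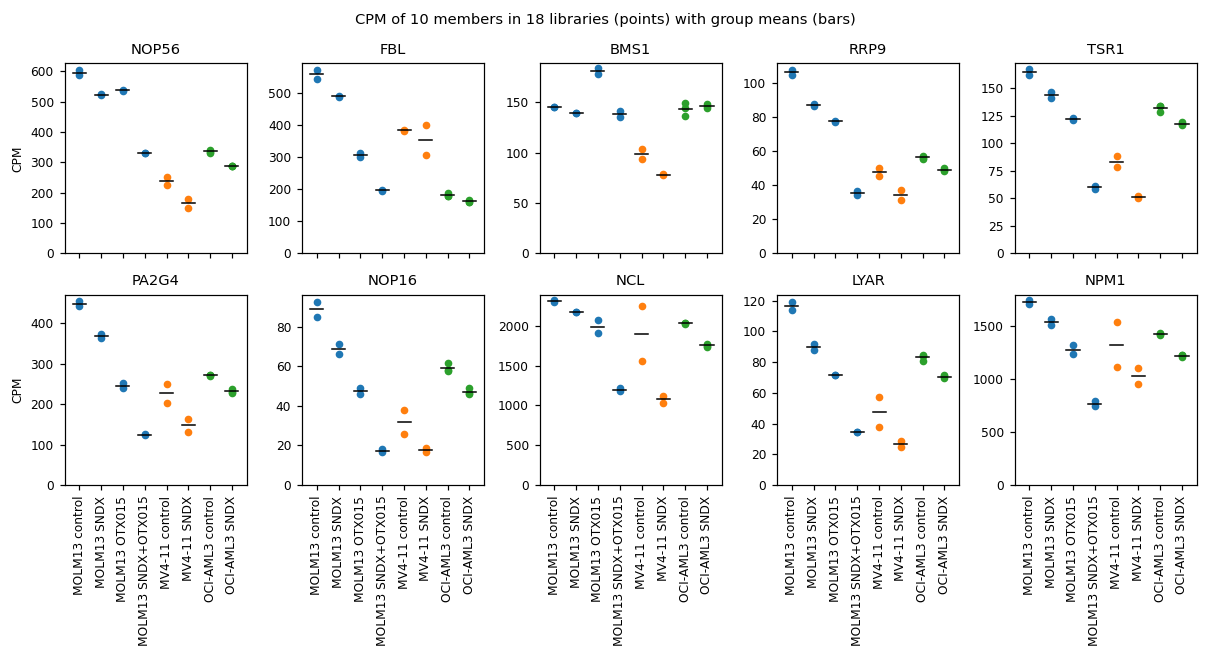
CPM of 10 members in each of the 18 libraries (points, coloured by cell line, with the group mean as a bar; each axis starts at 0). In MOLM13 the mean of each of the 10 was lowest in the combination, and BMS1 had its highest with OTX015, at 184 and 178 CPM.

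Under single agents the changes were smaller. With SNDX-50469 the 5 members that fell were MRTO4 (-0.43 ± 0.04, adjusted p = 1.27e-12), NIP7 (-0.37 ± 0.05), PWP2 (-0.36 ± 0.12), LYAR (-0.35 ± 0.05) and NOP16 (-0.35 ± 0.06). The highest values were those of HEATR1, UTP20 and RRP1B (0.04 ± 0.04). Without replicate 1 of the untreated MOLM13 libraries 2 of the members were called, and by adjusted p alone, with no fold limit, 30 were lower and 2 higher (17.6% of all genes lower, 15.1% higher). With OTX015 the largest falls were those of NLE1 (-0.90 ± 0.06), NOP16 (-0.87 ± 0.06) and EBNA1BP2 (-0.84 ± 0.05), and 11 of the 21 that fell were large subunit factors. Next to BMS1, the highest values under OTX015 were those of HEATR1 and RCL1 (0.06 ± 0.06).

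Against each single agent, the combination was lower for nearly every member. Compared with SNDX-50469 alone, 44 members were lower and 0 higher, with a median of -1.10 (29% of all genes lower, 27.9% higher), and NVL (-0.12 ± 0.07) and BMS1 (-0.03 ± 0.05) were not called. The lowest were NOP16 (4.01-fold lower), NLE1 (-1.74 ± 0.06) and PPAN (-1.71 ± 0.13), the highest called RRP1B (-0.65 ± 0.04) and NOC3L (-0.61 ± 0.06). Compared with OTX015 alone, 45 members were lower and 0 higher, with a median of -0.94 (16.5% lower, 18.4% higher). NOP16 (-1.48 ± 0.08), MRTO4 (-1.34 ± 0.05) and RRP9 (-1.17 ± 0.06) were the lowest, and NOB1 (-0.55 ± 0.06), BMS1 (-0.42 ± 0.04) and NVL (-0.06 ± 0.07, not called) the highest. These comparisons share the libraries with both agents.

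With both agents, nearly every member was also lower than the sum of the separate changes would give. This sum was above 0 for BMS1 (0.32), HEATR1 (0.29), UTP20 (0.21) and RRP1B (0.05), and BMS1 was not called lower with both agents. The interaction term, which is the log2 change with both agents minus the sum of the log2 changes with each, was negative and called for 45 of 46 members and positive for 0, with a median of -0.73, while 12.7% of all genes were called lower and 11.5% higher. UTP20 (-1.23 ± 0.08, adjusted p = 6.94e-20), NOP16 (-1.13 ± 0.10) and NOLC1 (-1.13 ± 0.06) had the lowest terms. For UTP20 the sum of the single agents was 0.21 and the change with both was -1.03, and for NOLC1 the values were -0.11 and -1.24. FBL, whose single-agent sum was already -0.99, had a smaller term (-0.51 ± 0.06). The terms nearest 0 were those of NOB1 (-0.40 ± 0.08), BMS1 (-0.39 ± 0.06) and NVL (-0.01 ± 0.10, adjusted p = 0.966, not called). By role the median terms ran from -0.70 for late small subunit factors to -0.79 for snoRNP proteins.

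**Figure D3:**
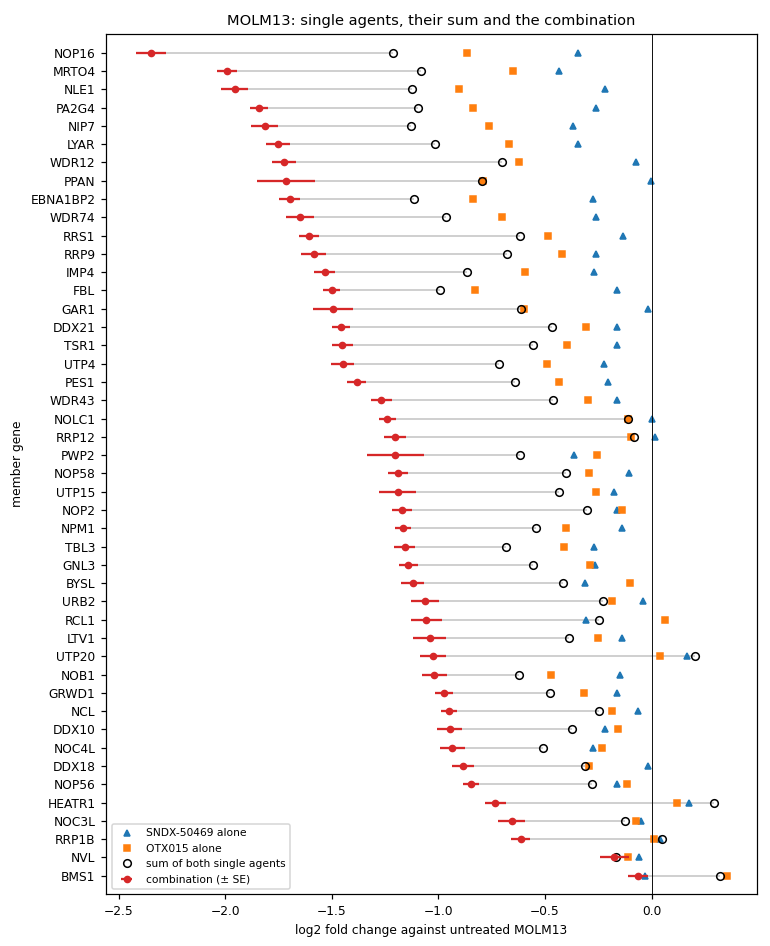
Log2 fold change of each member against untreated MOLM13 for SNDX-50469 alone (triangles), OTX015 alone (squares), the sum of both (open circles) and the combination (red points, bars ± SE), ordered by the combination. The combination lies left of the sum for 45 members past the test, and for NVL both lie at -0.17.

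Lists of related genes were set beside the members. Of 78 other ribosome biogenesis factors, 68 fell and 1 rose with both agents (median -0.82), and 52 had a called negative interaction and 0 a positive one (median -0.43). The lowest of these with both agents were NPM3 (-2.58 ± 0.06), NHP2 (-1.71 ± 0.06) and RPF2 (-1.62 ± 0.07), and the highest were DDX52 (0.37 ± 0.06), DDX47 (0.25 ± 0.62) and EFL1 (0.22 ± 0.07), of which only DDX52 rose past the test. RNA polymerase I subunits and factors fell for 14 of 15 and rose for 1 (median -0.83). Of 83 cytosolic ribosomal proteins, 76 fell with both agents (median -0.65), 73 already with OTX015 alone (median -0.49), and 6 had a called negative interaction (median 0.05). Mitochondrial ribosomal proteins fell for 73 of 78 (median -0.94), with 25 called negative and 1 positive for the interaction. Whether the members' terms differed from those of these lists was not tested.

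**Figure D4:**
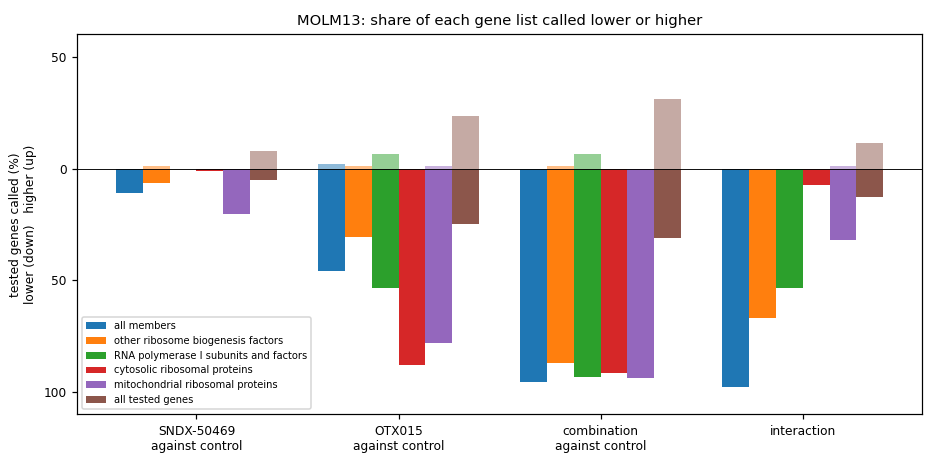
Share of the tested genes of each list called lower (bars down) or higher (bars up, paler) in 4 MOLM13 comparisons. The members and the cytosolic ribosomal proteins both mostly fell under the combination, at 44 of 46 and 76 of 83 lower, and the counts called lower for the interaction were 45 of 46 members, 52 of 78 other biogenesis factors, 8 of 15 RNA polymerase I genes, 25 of 78 mitochondrial and 6 of 83 cytosolic ribosomal proteins, with no test between lists.

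Under the treatments MYC changed in the same direction as most members. It measured 1686 and 1765 CPM in untreated MOLM13, 1336 and 1337 with SNDX-50469, 786 and 794 with OTX015 and 228 and 246 with both agents. The groups did not overlap, and the log2 changes were -0.34 ± 0.04, -1.09 ± 0.04 and -2.86 ± 0.04, with an interaction of -1.42 ± 0.05. In MV4-11 it measured 718 and 625 CPM untreated and 354 and 359 with SNDX-50469, and in OCI-AML3 543, 554 and 547 and 426, 428 and 436. Among untreated lines MYC was thus highest in MOLM13 and lowest in OCI-AML3. Against MOLM13, 40 members were called lower and 0 higher in MV4-11 (29.3% of all genes lower, 34.2% higher). In OCI-AML3 27 were called lower and 2 higher than in MOLM13 (30.5% lower, 33.7% higher). Against MV4-11, 23 members were called higher in OCI-AML3 and 3 lower (33.1% of all genes higher, 34.3% lower). The summed level of 7 myeloid genes (SPI1, CD33, CEBPA, LYZ, MPO, ANPEP, CSF3R) also differed between the MOLM13 groups, at 1428 to 1444 CPM untreated, 1672 to 1704 with SNDX-50469, 808 to 847 with OTX015 and 1246 to 1248 with both. The part of either in the members' change was not tested. Members with an E-box in a window had a median log2 change of -1.42 with both agents (20 members, -1.99 to -0.66), those without -1.16 (19 members, -2.35 to -0.06) and those with no window given -1.19 (7 members). Their median interactions were -0.74, -0.68 and -0.84, with no test.

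SNDX-50469 alone was also given to the other lines. In MV4-11, at the higher dose, 33 members fell and 0 rose, with a median of -0.58 (9.34% of all genes lower, 11.4% higher). Without replicate 1 of the untreated libraries, the one with the high mitochondrial share, 12 members were called, and the part of that library's quality in the count was not tested. DDX21 (-1.10 ± 0.16, adjusted p = 0.000147), WDR43 (-1.03 ± 0.15) and PWP2 (-1.03 ± 0.39, adjusted p = 0.0724, not called) had the lowest values. The highest were RRP1B (0.05 ± 0.16), TBL3 (0.04 ± 0.16) and FBL (-0.13 ± 0.16), none of them called. NCL measured 2251 and 1553 CPM untreated and 1123 and 1027 with the agent, a gap between the untreated libraries that was wider than in any other group. NOP16 measured 38.1 and 25.8 CPM untreated and 18.5 and 16.7 treated (-0.87 ± 0.19). For DDX21 the values were 358 and 330.4 CPM untreated and 147 and 177 treated, and the groups did not overlap. In this comparison 28.6% of all genes were wholly lower and 31.9% wholly higher. FBL measured 383 and 382 CPM untreated and 399 and 307 treated, overlapping groups. NPM1 measured 1537 and 1116 CPM untreated and 1110.2 and 957 treated (-0.37 ± 0.19, adjusted p = 0.172), which was not called.

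In OCI-AML3 2 members fell and 0 rose (4.53% of all genes lower, 8.58% higher), with a median of -0.19. These were MRTO4, at 139, 137 and 136 CPM untreated and 111, 102 and 109 treated (-0.35 ± 0.03, adjusted p = 2.12e-06), and NOP16, at 61.8, 57.8 and 58.0 and 48.8, 45.8 and 46.4 (-0.33 ± 0.04). Groups did not overlap for either gene, while 24.3% of all genes were wholly lower and 24% wholly higher. The count rests close to the fold limit: it was 0 without treated replicate 2, and 1 without treated replicate 3 or without untreated replicate 1. By adjusted p alone 41 members were lower and 0 higher (19.3% of all genes lower, 18.9% higher). NPM1 measured 1415, 1441 and 1425 CPM untreated and 1233, 1206 and 1226 treated (-0.22 ± 0.02, adjusted p = 1.07e-06), a difference larger than the spread but under the fold limit. NCL was at -0.21 ± 0.02 and NOP56 at -0.22 ± 0.02. RRP12 (-0.30 ± 0.03) was the third lowest, and the highest were RRP1B (0.04 ± 0.03), BMS1 (0.03 ± 0.03) and UTP20 (-0.02 ± 0.06). RRP1B was thus among the 3 highest members in each of the 3 lines.

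**Figure D5:**
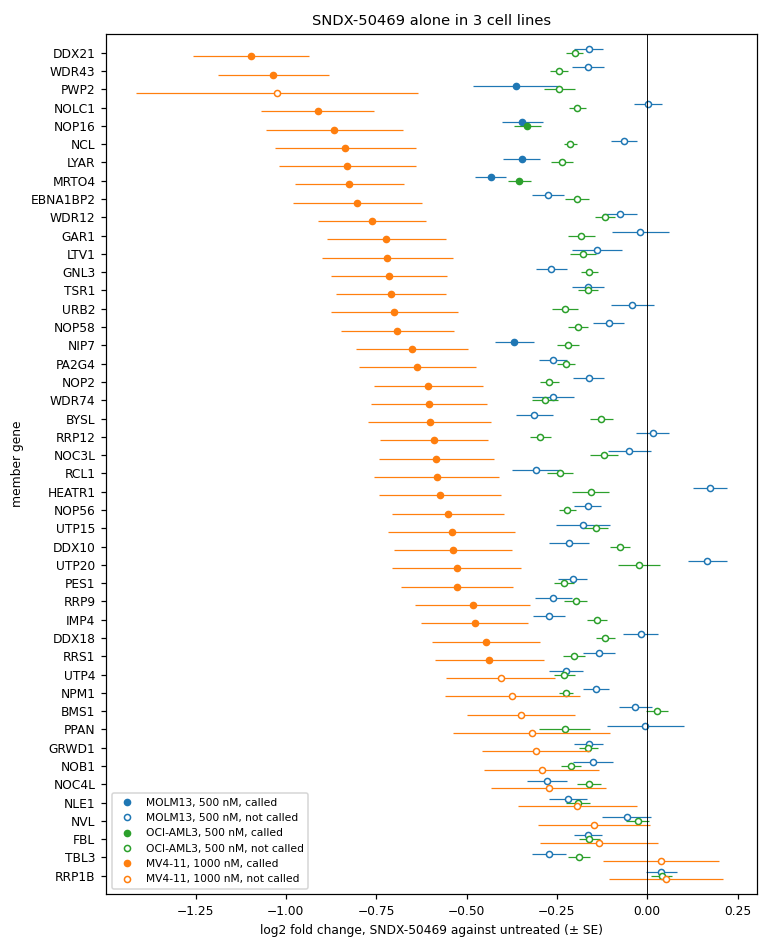
Log2 fold change (± SE) of each member with SNDX-50469 against untreated cells in MOLM13 and OCI-AML3 (500 nM) and MV4-11 (1000 nM), with filled points where called, ordered by MV4-11. Called members number 5, 2 and 33, and the error bars of MV4-11 are the widest.

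The response at the matched dose was compared directly between OCI-AML3 and MOLM13. No member differed past the test (0 lower, 0 higher by edgeR, against 1.49% and 2.6% of 17597 genes), with 2 lower and 3 higher at an unadjusted p under 0.05. DESeq2 called 0 in either direction, and limma-voom called 1 lower. The differences (OCI-AML3 minus MOLM13) had a median of 0.02 and ran from -0.30 to 0.21. None reached the fold limit of 0.32 in size, so edgeR could call none of them whatever its p. The fit took its spread from all 18 libraries, MV4-11 included, with a fitted variation of 6.14% against 3.06% and 3.15% for MOLM13 and OCI-AML3 alone. Standard errors ran from 0.07 to 0.15, so the lack of calls does not show that the responses were equal. RRP12 had the lowest adjusted p of the members (-0.28 ± 0.08, adjusted p = 0.059). The lowest differences were those of HEATR1 (-0.30 ± 0.13), RRP12 and PPAN (-0.20 ± 0.14). BYSL (0.21 ± 0.10), NIP7 (0.17 ± 0.08) and DDX10 (0.17 ± 0.10) had the highest. The response in MV4-11, at another dose, was set beside these values and not tested against them.

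Untreated cells differed in their level of the pathway. Untreated MV4-11 was lower than untreated MOLM13 for 40 members and higher for 0 (median -0.90, with 29.3% of all genes lower and 34.2% higher). PWP2 (-2.60 ± 0.16), TBL3 (-1.72 ± 0.08) and BYSL (-1.67 ± 0.08) were the lowest, and NOB1 (0.10 ± 0.09), GAR1 (0.06 ± 0.08) and NVL (-0.10 ± 0.07) the highest, not called. Untreated OCI-AML3 was lower than MOLM13 for 27 members and higher for 2 (median -0.49, with 30.5% lower and 33.7% higher). FBL was the lowest (-1.68 ± 0.07), at 187, 178 and 178 CPM, with GRWD1 (-1.39 ± 0.05) and PPAN (-1.35 ± 0.10) after it, and PWP2 (0.43 ± 0.11) and HEATR1 (0.41 ± 0.09) were higher, with UTP15 (0.28 ± 0.06) not called. NPM1 was called lower (-0.34 ± 0.09) and NCL was not (-0.25 ± 0.10), and under quantile normalization with limma-voom both turned to the other sign. Between OCI-AML3 and MV4-11, 23 members were higher in OCI-AML3 and 3 lower (median 0.32, with 33.1% of all genes higher and 34.3% lower). PWP2 (3.02 ± 0.14), HEATR1 (1.27 ± 0.10) and URB2 (1.16 ± 0.08) were the most raised, and FBL (-1.16 ± 0.07), NOB1 (-0.39 ± 0.08) and NOC4L (-0.33 ± 0.06) were those lower. NCL and NPM1 lay at 0.01 ± 0.10 and 0.02 ± 0.09, within the spread. The cell line and whatever else was done separately for each line cannot be told apart in these baseline differences.

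Counts of some members carry limits from the genome. PWP2 has a near copy, LOC102724159, at chr21:5130871-5154658 of GRCh38.p14, whose promoter window was identical to that of PWP2 at 241 of 300 bases, and reads could be split between them. PWP2 measured 12.6 and 11.5 CPM in untreated MOLM13, 1.90 and 1.99 in untreated MV4-11 and 17.0, 16.9 and 16.6 in untreated OCI-AML3, so the levels of this gene are uncertain. PPAN overlaps P2RY11 and their read-through gene. Pseudogenes named after a member held 1.18% of the counts of NPM1, 2.71% of those of BMS1, 3.65% of those of DDX10 and 0.611% of those of PA2G4. In RefSeq 7 members (NOP56, NOP58, WDR43, TSR1, PPAN, GNL3 and NCL) hold 24 small nucleolar RNA genes within their span, and 11 members overlap another coding gene, so reads of these could not be told apart where the counting did not use strand.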

How the data were processed

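RNA was sequenced from 18 libraries in 8 groups. The authors deposited raw read counts per Ensembl gene ID, with replicates not pooled. The submitters' processing notes name STAR and hg38, while the study's methods name other programs, and neither source gives the counting program, annotation or strand setting. Symbols were matched for 55603 of 58037 IDs, and IDs without one held 0.156% of the counts. Each line was fitted separately with edgeR 4.0.16 (R 4.3.3; filterByExpr, TMM factors, quasi-likelihood test of group means), and the response difference and untreated cells in 1 fit of all 18 libraries. P-values were adjusted by Benjamini-Hochberg over all genes tested, and calls needed an adjusted p under 0.05 and a log2 change of at least 0.32. The fit was tested on simulated data with the same variation for each line. That variation was below the 13.2% fitted for MV4-11, so the simulation does not cover the spread of that line. Values per library are given for the highest and the most changed member of each role and for NPM1, and each comparison names the 3 lowest and 3 highest members and any called against the majority. The members and lists were chosen with earlier results of these data known. Lists of other biogenesis factors, RNA polymerase I, ribosomal proteins and myeloid genes served for comparison. Alternatives were DESeq2 1.42.0, limma-voom (limma 3.58.1) with quantile normalization, other scalings, filters and fold limits, a replicate block and leaving out each library.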

Additional observations from a re-analysis of the deposited data

Results flagged for a closer look

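In MOLM13 the change with SNDX-50469 differed between cells with and without OTX015 for 45 of the 46 members, all toward lower levels with both agents (edgeR's test of the interaction term, Benjamini-Hochberg over all genes). Of 14360 tested genes, 12.7% were called lower and 11.5% higher for this term. Among the members, the largest differences on the log2 scale were -1.23 for UTP20, -1.13 for NOP16 and -1.13 for NOLC1. Groups held 2 or 3 libraries, so no search for single outlying libraries was made.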

How the results depend on the processing

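The counts of members lower or higher with both agents, against either single agent and for the interaction stayed within 1.5 times of the reported value under every alternative run. With SNDX-50469 in MOLM13 the count of 5 lower became 1 with no scaling factors, 3 with limma-voom, and 30 lower and 2 higher with no fold limit, and ranged from 2 to 6 when single libraries were left out, the 2 without untreated replicate 1. With OTX015 it became 36 lower and 2 higher with no fold limit. In OCI-AML3 the count of 2 lower became 0 with no scaling factors, 1 with no filter on low counts and 41 with no fold limit, and ranged from 0 to 2 with single libraries left out. In MV4-11 the count of 33 ranged from 12 to 26 with single libraries left out, the 12 without untreated replicate 1. For the response difference limma-voom called 1 lower. In untreated OCI-AML3 against MOLM13 the 2 higher became 7 with no scaling factors, 5 with no fold limit and 1 with the replicate block. Against MV4-11 the 3 lower became 1 with no filter and 5 with no fold limit. NCL and NPM1 reversed in untreated OCI-AML3 against MOLM13 under limma-voom, to 0.51 and 0.48. The cause of these shifts was not tested, apart from the fold limit, which acts by construction. Of the values of single members named, 2159 stayed on the same side of the threshold, 58 lost the call, 41 gained it and 2 reversed. Direction was compared only for values called in the main run or in the alternative, so sign changes among uncalled values were not counted. Same-numbered replicates deviated together little (correlations of -0.031 to 0.079), so the numbers were not used as pairs, and the replicate block moved no other count of members by over 1.5 times.

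The split of all called genes also moved with the scaling or the tool. The share called higher went from 60.6% to 74.3% with no scaling and 44.4% with DESeq2 for SNDX-50469 in MOLM13, and from 65.5% to 76.5% with no scaling and 50.8% with limma-voom in OCI-AML3. Without scaling factors the median of all genes moved by 0.20 (OCI-AML3) and 0.14 (MV4-11) against untreated MOLM13. MV4-11, with 2 libraries a group and the widest spread, gives the least precise changes, and PWP2 and PPAN have the fewest reads.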
